A study of Mus musculus with 6 samples.

Results

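The genes of the unfolded protein response and of the integrated stress response were examined in the neocortex of mouse embryos heterozygous for a Rest allele without exon 4 (Rest_het) and of wild-type embryos (WT). The 33 genes were given by name: 15 chaperones and other folding or degradation genes of the endoplasmic reticulum (ER), 3 stress sensors, 4 transcription factors and 11 targets of the factor ATF4. They are 33 of the 48709 genes counted, and 32 of them had enough reads to be tested. The missing one is Trib3, which had 2 to 9 reads per library. There were 3 Rest_het and 3 WT embryos, all labelled C57BL/6 and E15.5 (embryonic day), each giving 1 library made from oligo dT primed cDNA. The sample titles call the mutants KO, but the genotype given is heterozygous. The protocol speaks of 3 mice per genotype without giving litter or sex, so the p-values measure the spread between these mice, part of which may be technical. Xist, a transcript of female cells, had 778 reads in Rest_het replicate 3 and 764 in WT replicate 2. It had 0 or 1 in each of the other libraries.

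The ER folds proteins that are secreted or inserted into membranes. When unfolded proteins gather there, the sensors IRE1, PERK and ATF6 set off the unfolded protein response, which raises chaperone genes through the factors XBP1 and ATF6. PERK also belongs to the integrated stress response, in which phosphorylated eIF2 slows translation in general while the Atf4 message is translated more, and ATF4 then turns on genes of amino acid supply, redox balance and, through CHOP (the product of Ddit3), cell death. In the embryonic cortex the pathway has been tied to the switch of progenitors between direct and indirect production of neurons. Levels of messenger RNA show neither the phosphorylation of eIF2 nor the splicing of Xbp1 by IRE1.

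The 6 libraries held 17835117 to 18426652 gene reads in Rest_het and 19996943 to 20753653 in WT. Rest itself had 16.7, 19.0 and 18.6 CPM (gene reads scaled to a common library size, with TMM factors) in Rest_het and 21.0, 19.7 and 21.1 CPM in WT libraries (edgeR adjusted p 0.49), and a count over the whole gene does not check the loss of exon 4. WT replicate 1 stood apart in the share of read pairs assigned to no gene, 38.4% against 32.5 to 36.0% in the other 5 libraries. Reads of LacZ occurred in WT and of Cre-ERT2 in Rest_het libraries only, so the genotypes also differed in these sequences, and what goes with them cannot be told apart from the effect of the Rest allele.

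The promoters of some of these genes hold elements through which the response is known to act, and the windows of 3 such genes are printed first. Each runs from 250 bases before to 50 bases after the gene's start in RefSeq on GRCm38.p6, written 5′ to 3′ on the strand of the gene. Hspa5 encodes BiP, the main Hsp70 chaperone of the ER. Herpud1 encodes an ER membrane protein of the degradation machinery, and Chac1 a glutathione-degrading enzyme induced by ATF4. Capitals mark the fixed letters of the ER stress response element in Hspa5 (ERSE, CCAAT, then 9 bases, then CCACG), of ERSE-II (ATTGG, 1 base, CCACG) and of the ATF4 element in Herpud1 (CARE, TGATGNAA, here on the opposite strand), and of the CARE in Chac1 (also on the opposite strand).
Hspa5 (chr2:34771840-34772139, + strand): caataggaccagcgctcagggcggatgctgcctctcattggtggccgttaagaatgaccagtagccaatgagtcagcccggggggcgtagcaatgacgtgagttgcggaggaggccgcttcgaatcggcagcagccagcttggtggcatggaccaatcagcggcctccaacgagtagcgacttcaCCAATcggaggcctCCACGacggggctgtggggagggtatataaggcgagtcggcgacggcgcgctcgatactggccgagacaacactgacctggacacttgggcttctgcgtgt
Herpud1 (chr8:94386179-94386478, + strand): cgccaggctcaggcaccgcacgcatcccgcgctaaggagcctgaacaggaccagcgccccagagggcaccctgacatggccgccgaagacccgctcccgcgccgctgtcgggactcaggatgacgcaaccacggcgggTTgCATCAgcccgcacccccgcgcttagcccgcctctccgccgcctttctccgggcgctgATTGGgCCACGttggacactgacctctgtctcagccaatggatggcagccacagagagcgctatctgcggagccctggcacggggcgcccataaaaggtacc
Chac1 (chr2:119350992-119351291, + strand): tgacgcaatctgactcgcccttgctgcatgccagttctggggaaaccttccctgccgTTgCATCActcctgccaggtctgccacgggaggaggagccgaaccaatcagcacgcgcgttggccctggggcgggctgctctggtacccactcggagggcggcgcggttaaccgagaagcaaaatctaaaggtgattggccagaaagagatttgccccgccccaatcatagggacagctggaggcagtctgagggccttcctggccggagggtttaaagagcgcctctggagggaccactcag

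Of the 33 genes, 29 matched a RefSeq window by symbol, with 31 windows in all. Manf, Hyou1, Atf6 and Slc7a5 had none. An exact ERSE on either strand was present in 39 of all 32851 windows (0.119%) and in those of 7 of the 13 folding genes with a window. It was in 0 of 10 ATF4 targets, 0 of 4 factors and 0 of 2 sensors. The elements of the other 6 folding genes are shown with 10 bases on each side, in the orientation of the element, and for Hsp90b1 the copy nearer to the gene's start is given.
Creld2 (chr15:88819510-88819548, - strand): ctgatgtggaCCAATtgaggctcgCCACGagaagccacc
Dnajc3 (chr14:118937817-118937855, + strand): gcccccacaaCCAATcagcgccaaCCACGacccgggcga
Calr (chr8:84847065-84847103, + strand): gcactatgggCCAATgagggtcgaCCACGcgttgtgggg
Pdia6 (chr12:17266481-17266519, + strand): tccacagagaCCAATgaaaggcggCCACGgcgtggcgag
Hsp90b1 (chr10:86705523-86705561, + strand): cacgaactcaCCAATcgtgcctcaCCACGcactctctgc
Canx (chr11:50325790-50325828, - strand): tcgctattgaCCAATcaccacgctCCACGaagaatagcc

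ERSE-II was in 12 windows (0.0365%), among them those of Herpud1 and Dnajb11. The CARE, whose 7 fixed letters make it a commoner match, was in 1304 windows (3.97%), in 4 of 10 ATF4 targets (Trib3, Asns, Chac1 and Slc7a11) and in Herpud1. It occurred in 2 copies in Slc7a11, which lie on opposite strands and are given here because that gene is described below.
Slc7a11 (chr3:50443643-50443670, + strand): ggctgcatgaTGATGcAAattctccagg
Slc7a11 (chr3:50443662-50443689, - strand): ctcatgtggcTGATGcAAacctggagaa

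The 8 letters TGACGTGG, the core of the XBP1 element, were in 222 windows (0.676%) and in 0 of the 29 genes. TTCAGCACC, the left part of the site that REST binds, was in 122 windows (0.371%) and also in 0 of the 29. These are matches of letters in a window of 300 bases and say nothing of binding.

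**Figure D1:**
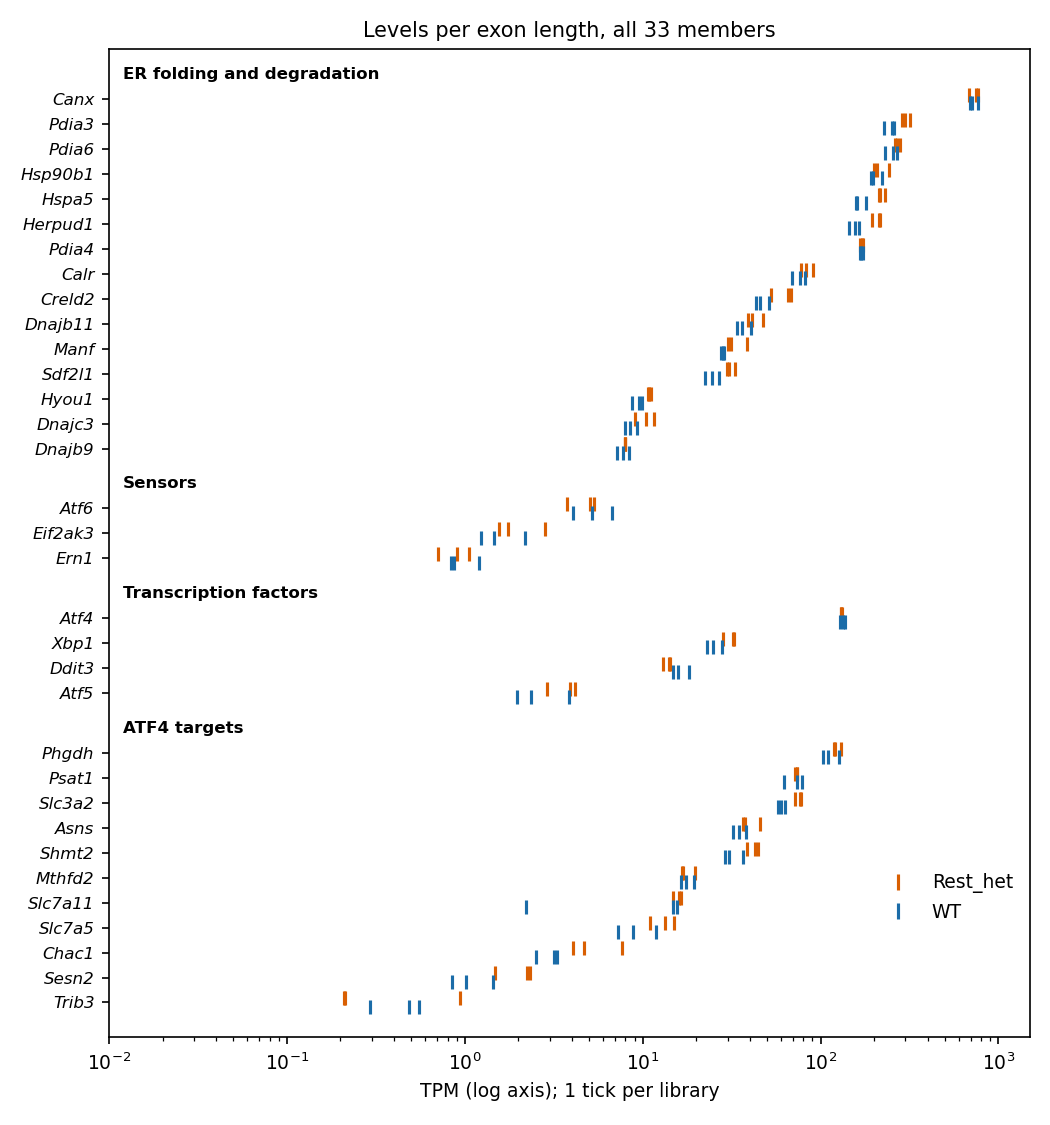
Level of all 33 genes in TPM (reads divided by the summed exon length and scaled to the same total in every library), on a log axis, with 1 tick for each of 6 libraries, Rest_het above WT. Canx is highest, the sensors lie among the lowest, and the single WT library set apart for Slc7a11 is replicate 1.

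Canx, the membrane-bound lectin chaperone, was the most abundant, with 687 to 765 TPM over the 6 libraries. Each of the next genes in order overlapped with its neighbour: Pdia3, a disulfide isomerase that works with the lectin chaperones, had 228 to 320 TPM, Pdia6 230 to 281, Hsp90b1, the Hsp90 of the ER, 192 to 243, and Hspa5 158 to 229 TPM. Pdia6 and Hspa5, which are not neighbours in this order, did not overlap. Among the factors, Atf4 had 129 to 137 TPM, Xbp1 22.9 to 32.6, Ddit3 13.1 to 18.2 and Atf5 1.98 to 4.16 TPM. The first 3 of these did not overlap with each other, and Atf5 lay below them all. The sensors were scarce, with 3.74 to 6.68 TPM for Atf6, 1.24 to 2.81 for Eif2ak3, which encodes PERK, and 0.708 to 1.20 for Ern1, which encodes IRE1. The most abundant ATF4 targets were the serine synthesis genes Phgdh, with 103 to 130 TPM, and Psat1, with 62.7 to 78.9 TPM. The range of Psat1 overlapped with that of Slc3a2, which had 57.6 to 78.1 TPM.

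The comparison of genotypes was made on the counts of all genes with edgeR's quasi-likelihood test. Values per library are CPM, and fold changes are Rest_het over WT. At a Benjamini-Hochberg adjusted p under 0.05, edgeR called 19 of 15385 genes tested (0.123%) and 0 of the 32 stress-response genes, whose smallest adjusted p was 0.32. DESeq2 called 127 genes (0.825%), among them Herpud1 and Hspa5, and limma-voom and limma on the deposited values called 0 of the 32 or 33 they tested. At an unadjusted edgeR p under 0.05, 9 of the 32 (28.1%) were higher in Rest_het, against 6.98% of all tested genes, and 0 were lower, against 4.72%. These 9 were 4 folding genes (Herpud1, Hspa5, Pdia3, Creld2), the factor gene Xbp1 and 4 ATF4 targets (Slc3a2, Shmt2, Chac1, Sesn2). In 12 of the 32 genes the 3 Rest_het values lay above the 3 WT values, which 10.4% of all tested genes showed, and in 1, Ddit3, below them, against 8.94%. The median log2 fold change of the 32 was 0.20, against 0.0054 over all tested genes.

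**Figure D2:**
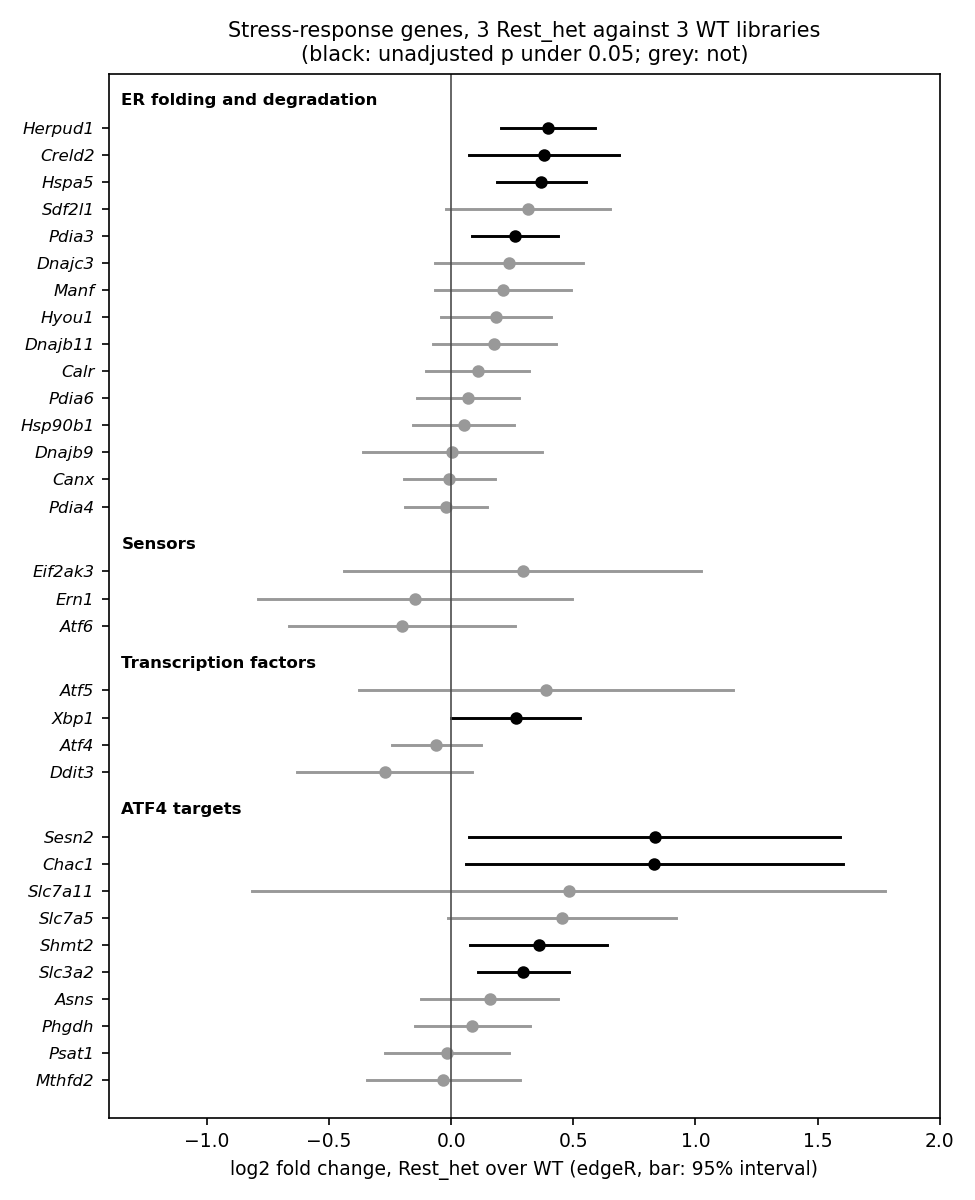
Log2 fold change, Rest_het over WT, of the 32 tested genes by role (points, with bars for the 95% interval from edgeR, 3 libraries per group). The 9 genes with an unadjusted p under 0.05 are black and all lie above 0, while Canx, Pdia4 and Dnajb9 lie near 0.

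Among the ER chaperones and their partners the folds ran from 0.985 for Pdia4 to 1.32 for Herpud1. In 8 of the 15 genes all Rest_het values lay above all WT values, which 10.4% of all tested genes showed. Hspa5 had 222, 223 and 230 CPM in Rest_het libraries, against 165, 170 and 188 CPM in WT libraries. Every Rest_het library thus lay above every WT library. Its fold was 1.29, with a 95% interval from 1.14 to 1.47 (edgeR p 0.0015, adjusted p 0.32). Pdia3 had 219, 232 and 238 CPM in Rest_het and 193, 182 and 200 CPM in WT libraries, again without overlap, with a fold of 1.20 (1.06 to 1.35; edgeR p 0.0092, adjusted p 0.35). Creld2, a secreted ER protein induced by stress, had 17.4, 22.3 and 22.2 CPM in Rest_het and 14.4, 15.8 and 17.3 CPM in WT libraries. Its lowest Rest_het and highest WT values nearly touched, and the fold was 1.30 (1.05 to 1.61; edgeR p 0.021, adjusted p 0.37).

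Herpud1 had 110, 126 and 118 CPM in Rest_het libraries, against 93.4, 85.9 and 90.0 CPM in WT libraries. The genotypes did not overlap, and the fold was 1.32 (1.15 to 1.5; edgeR p 0.0014, adjusted p 0.32). Herpud1 lies on chromosome 8 from 94386438 to 94395377 (GRCm38), inside the stretch from 84856989 to 102865798 that holds the 4 called genes of that chromosome, the nearest of which is 2.75 Mb away. Of the 32 other genes tested within 1 Mb of it, 0 were called, 1 was higher and 1 lower at an unadjusted edgeR p under 0.05, and their median log2 fold change was 0.037. Calr, the soluble lectin chaperone, lies 0.0101 Mb from the called gene Farsa on the same chromosome. It had 57.7, 56.0 and 61.6 CPM in Rest_het and 57.4, 55.8 and 49.3 CPM in WT libraries, which overlap, with a fold of 1.08 (0.933 to 1.25). Hspa5 (chromosome 2), Pdia3 (2) and Creld2 (15) lie on chromosomes without a called gene.

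Of the co-chaperones and smaller partners, 4 had separate groups without a p under 0.05. Sdf2l1, which works with the DnaJ proteins of the ER, had 8.27, 9.14 and 7.86 CPM in Rest_het and 7.26, 6.91 and 6.13 CPM in WT libraries, with a fold of 1.24 (0.986 to 1.57). Dnajc3, a DnaJ partner of BiP, Manf, an ER protein with neurotrophic activity, and Hyou1, a nucleotide exchange factor of BiP, also had all Rest_het values above all WT values, with folds of 1.18 (0.955 to 1.45), 1.16 (0.955 to 1.4) and 1.14 (0.971 to 1.33). In Dnajc3 the lowest Rest_het and highest WT values, 11.581 and 11.565 CPM, were almost equal. In Manf they were 25.3 and 24.8 CPM. Dnajb11, another DnaJ partner, had a fold of 1.13 (0.950 to 1.35) with overlapping groups. Manf overlaps Dcaf1 and Pdia3 overlaps Catsper2 on the opposite strand, and Manf also overlaps Rbm15b on its own strand. The libraries carry no strand, so reads of shared stretches cannot be assigned to 1 gene. Read pairs set aside as ambiguous, 2.54 to 2.85% per library, were counted for no gene. How many of these pairs came from Manf or Pdia3 was not measured, so the uncertainty of their values is not known.

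For the most abundant chaperones, the higher Pdia3 and Hspa5 among them, a change of 1.5-fold was outside the interval. Others of them lay close to no change. Canx had 783, 893 and 831 CPM in Rest_het and 872, 825 and 824 CPM in WT libraries, fully intermixed, with a fold of 0.994 (0.874 to 1.13). The folds of Pdia4 and Pdia6, both disulfide isomerases, were 0.985 (0.877 to 1.11) and 1.05 (0.908 to 1.21), and that of Hsp90b1 was 1.04 (0.899 to 1.20). Dnajb9, a DnaJ protein that holds IRE1 inactive and a classical XBP1 target, had 4.92, 5.04 and 4.83 CPM in Rest_het and 5.21, 4.64 and 4.89 CPM in WT libraries, with a fold of 1.0 (0.778 to 1.29). For 12 of the 15 folding genes the interval lay inside 1.5-fold in both directions. An exact ERSE was found in Hspa5, Creld2 and Dnajc3, and equally in Calr, Pdia6, Hsp90b1 and Canx, whose log2 fold changes were 0.11, 0.068, 0.052 and -0.0082. It was not found in the window of Pdia3.

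**Figure D3:**
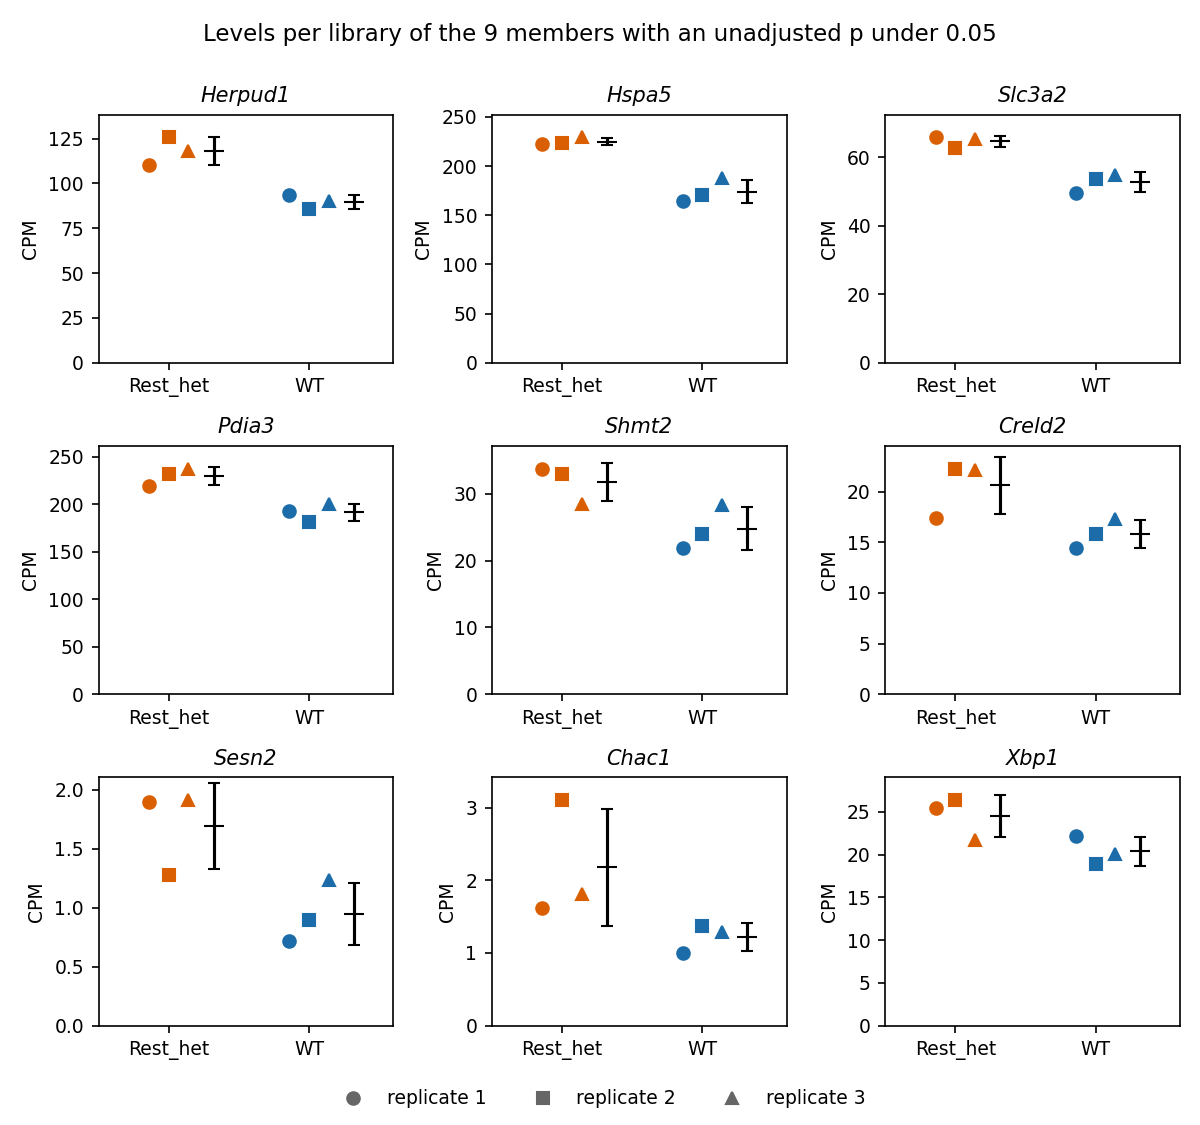
CPM of the 9 genes with an unadjusted edgeR p under 0.05, by library (Rest_het left, WT right; marker shape gives the replicate, the black bar is the mean with 1 SD, n = 3). In 8 of the 9 the groups do not overlap, and in Xbp1 the lowest Rest_het value lies below the highest WT value.

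The sensor genes gave wide intervals. Atf6 had 12.0, 8.59 and 11 CPM in Rest_het and 15, 9.49 and 11.8 CPM in WT libraries. Its fold was 0.870 (0.632 to 1.20), with replicate 2 the lowest in both groups. Ern1 had 2.11, 1.44 and 1.75 CPM in Rest_het and 1.72, 1.74 and 2.42 CPM in WT libraries, a fold of 0.903 (0.578 to 1.41). Eif2ak3 had 4.11, 2.33 and 2.5 CPM in Rest_het and 2.15, 1.90 and 3.24 CPM in WT libraries, a fold of 1.22 (0.737 to 2.03). The groups overlapped in all 3 sensors. Ern1 and Eif2ak3 had 26 to 76 reads per library and Atf6 155 to 314. Direction turned for Eif2ak3 without Rest_het replicate 1 and for Ern1 without WT replicate 3.

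Of the factors, Xbp1 had 25.5, 26.4 and 21.7 CPM in Rest_het and 22.2, 18.9 and 20.1 CPM in WT libraries, with 1 overlap between Rest_het replicate 3 and WT replicate 1. Its fold was 1.20 (1.0 to 1.44; edgeR p 0.049, adjusted p 0.43), and its unadjusted p was under 0.05 in only 4 of 15 alternatives. Atf4 had 74.4, 77.5 and 72.5 CPM in Rest_het and 76.4, 82.4 and 75.1 CPM in WT libraries, a fold of 0.959 (0.845 to 1.09). Ddit3, whose product CHOP acts in cell death under lasting stress, had 5.84, 6.04 and 5.31 CPM in Rest_het, all below the 6.55, 6.49 and 7.72 CPM of WT libraries. Its fold was 0.828 (0.646 to 1.06; edgeR p 0.12, adjusted p 0.51). Atf5 had 26, 35 and 37 reads in Rest_het and 24, 19 and 37 reads in WT libraries, a fold of 1.31 (0.769 to 2.23). Ddit3 overlaps Mars and Atf5 overlaps Nup62 on the opposite strand, and both neighbours had more reads than they did.

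Among the ATF4 targets, the clearest separation was in an amino acid transporter gene. Slc3a2, the shared heavy chain of several amino acid transporters, had 65.9, 62.7 and 65.3 CPM in Rest_het, against 49.5, 53.7 and 54.9 CPM in WT libraries. The groups were well apart, with a fold of 1.23 (1.08 to 1.4; edgeR p 0.0064, adjusted p 0.33). Its light chain partner Slc7a5, which carries large neutral amino acids, had 12.0, 10.1 and 13.1 CPM in Rest_het and 6.55, 8.33 and 10.9 CPM in WT libraries, overlapping, with a fold of 1.37 (0.991 to 1.89; edgeR p 0.056, adjusted p 0.43). Its other partner Slc7a11, the cystine transporter, had 55.7, 51.3 and 52.5 CPM in Rest_het and 7.5, 55.5 and 51.3 CPM in WT libraries. WT replicate 1 alone was low, with 157 reads against 925 to 1052 in the other 5 libraries, and without it the log2 fold change was -0.0080 in place of 0.48.

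Of the serine and one-carbon genes, Shmt2 separated and Phgdh, Psat1 and Mthfd2 did not. Shmt2, which splits serine in mitochondria, had 33.8, 33 and 28.5 CPM in Rest_het and 21.9, 24.1 and 28.3 CPM in WT libraries. The groups barely cleared each other, and the fold was 1.28 (1.05 to 1.56; edgeR p 0.019, adjusted p 0.36). Phgdh, the first enzyme of serine synthesis, had 78.4, 74.3 and 70.2 CPM in Rest_het and 62.5, 69.2 and 78.1 CPM in WT libraries, a fold of 1.06 (0.902 to 1.25). Psat1 of the same pathway had 75.7, 77.6 and 72.3 CPM in Rest_het and 64.9, 85.4 and 78.0 CPM in WT libraries, a fold of 0.988 (0.829 to 1.18), and both genes overlapped between the groups. Shmt2 overlaps Ndufa4l2 on the opposite strand. Mthfd2, the mitochondrial folate enzyme next to Shmt2, had a fold of 0.978 (0.787 to 1.21) and Asns, asparagine synthetase, of 1.12 (0.919 to 1.36).

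The least abundant targets were Chac1, Sesn2 and Trib3. Chac1 had 30, 56 and 34 reads in Rest_het and 21, 26 and 25 reads in WT libraries, or 1.62, 3.10 and 1.81 against 1.0, 1.37 and 1.29 CPM. The fold was 1.78 (1.04 to 3.04; edgeR p 0.038, adjusted p 0.41), and Rest_het replicate 2 was far above the rest. Without that library the log2 fold change of Chac1 was 0.49 in place of 0.83, and its unadjusted edgeR p was not under 0.05. Sesn2, a sensor protein that restrains mTORC1, had 35, 23 and 36 reads in Rest_het and 15, 17 and 24 reads in WT libraries, or 1.89, 1.27 and 1.91 against 0.717, 0.897 and 1.24 CPM. The fold was 1.78 (1.05 to 3.02; edgeR p 0.035, adjusted p 0.41). The unadjusted p was under 0.05 in 10 of 15 alternatives for Chac1 and in 9 of 15 for Sesn2. Trib3, a pseudokinase that dampens ATF4, had 9, 2 and 2 reads in Rest_het and 6, 5 and 3 reads in WT libraries, too few to test.

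Set side by side, the folding genes had 13 of 15 log2 fold changes above 0, a median of 0.18 and 8 genes with all Rest_het values above all WT values. Dnajb9, the nearest of the 13 to 0, turned below 0 with DESeq2 size factors, upper-quartile factors and DESeq2. The ATF4 targets had 8 of 10 above 0, a median of 0.33 and 4 such genes. Over all tested genes 7832 of 15385 lay above 0, and 10.4% had all Rest_het values above all WT values. For each library the median over a class of the log2 CPM minus the gene's mean over the 6 libraries was taken. In the folding class it was 0.038, 0.093 and 0.060 in Rest_het and -0.048, -0.091 and -0.076 in WT libraries, so that the 6 libraries fell into their genotypes. In the ATF4 targets it was 0.15, 0.14 and 0.095 in Rest_het, close together, but -0.29, -0.14 and 0.0095 in WT libraries, which spread widely. WT replicate 1 was the lowest library for 8 of the 10 ATF4 targets and for 5 of the 15 folding genes. WT replicate 2 was the lowest for 6 of the 15 folding genes and 1 of the 10 ATF4 targets. How often each library was the lowest over all tested genes was not counted, so these numbers do not single out a class. No test was made of these medians, since the genes were chosen with earlier results of the same libraries known.

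**Figure D4:**
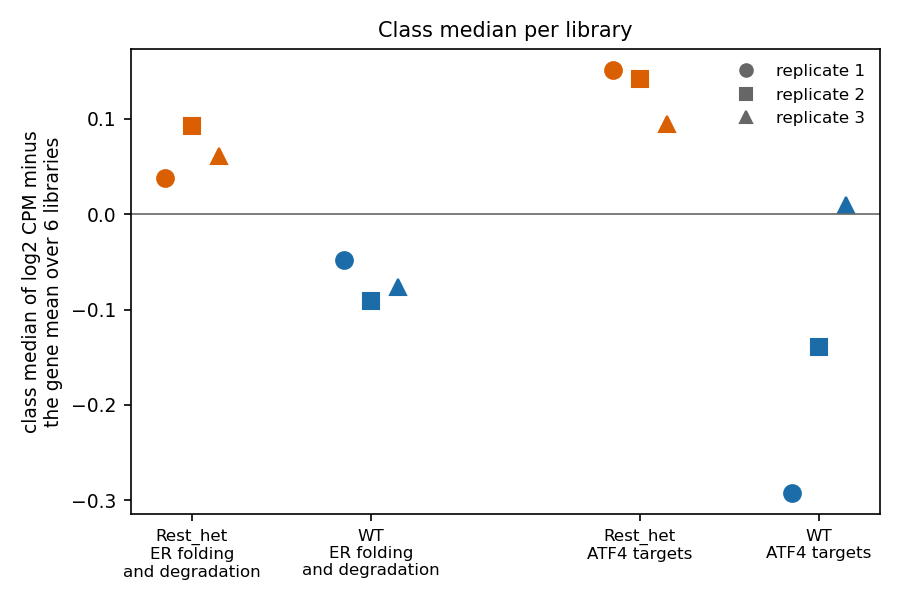
Median over each class of log2 CPM minus the gene's mean over 6 libraries, for the 15 folding genes and the 10 tested ATF4 targets (marker shape gives the replicate). The folding class puts Rest_het between 0.038 and 0.093 and WT between -0.091 and -0.048, while the ATF4 targets put WT replicate 1 at -0.29 and WT replicate 3 at 0.0095.

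Leaving out WT replicate 1 brought the medians to 0.21 for the folding genes and 0.23 for the ATF4 targets, so the difference between the classes, -0.14 with all libraries, became -0.018. The number of ATF4 targets higher at an unadjusted edgeR p under 0.05 was then 1, against 4 with all libraries. It was also 1 without WT replicate 2, and 2 without Rest_het replicate 1. The number of folding genes was 3 or 4 whichever library was left out. The share of all tested genes higher by this rule also moved, from 4.11% without Rest_het replicate 1 to 7.94% without Rest_het replicate 3. Over all 32 genes the number was 5 without WT replicate 1 and 4 without WT replicate 2, where 5.92% and 5.55% of all tested genes passed. Herpud1, Hspa5, Pdia3 and Slc3a2 kept an unadjusted p under 0.05 under each of 15 alternatives, including every left-out library. These alternatives reuse the same 6 libraries, and how many of all tested genes did likewise was not counted.

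**Figure D5:**
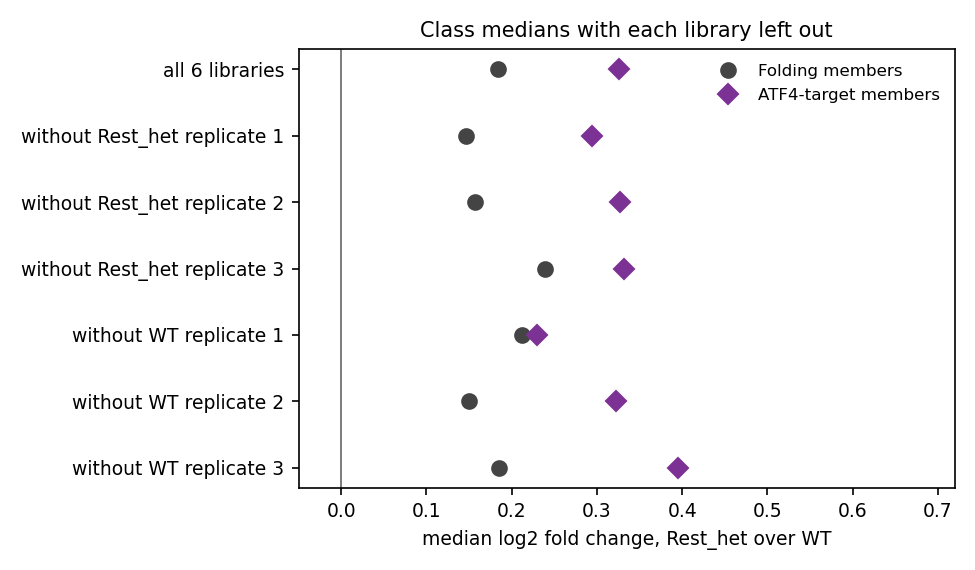
Median log2 fold change, Rest_het over WT, of the folding genes (circles) and the ATF4 targets (diamonds) with all 6 libraries and with each library left out. The medians stay above 0 in every case and come together, at 0.21 and 0.23, without WT replicate 1.

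The wider pathway was read from lists of 42 other ER genes and 32 other genes of the integrated stress response. Of the ER genes 41 were tested, and edgeR called 0 over all genes. At an unadjusted p under 0.05, 6 (14.6%) were higher and 0 lower, against 6.98% and 4.72% of all tested genes. With Xist as a covariate 3 of the 41 were higher, against 6.12% of all tested genes. The 6 were Edem2 and Syvn1 of ER-associated degradation, the translocon genes Sec61b and Serp1, and Ero1l and P4hb, the oxidase and the isomerase of disulfide formation. Syvn1, the ubiquitin ligase HRD1, had 14.5, 18.6 and 15 CPM in Rest_het and 7.89, 12.4 and 12.1 CPM in WT libraries, a fold of 1.49 (1.09 to 2.03; edgeR adjusted p 0.36). Edem2 had 33.2, 46.3 and 39.2 CPM in Rest_het and 28.4, 25.2 and 32.9 CPM in WT libraries, a fold of 1.37 (1.09 to 1.73; edgeR adjusted p 0.36). Both were free of overlap, though Rest_het replicate 1 and WT replicate 3 of Edem2 lay close. Sec61b had a fold of 1.20 (1.05 to 1.37) and Ero1l of 1.4 (1.04 to 1.90). In 9 of the 41 genes all Rest_het values lay above all WT values, against 10.4% of all tested genes. In 4 (Ssr1, Mbtps2, Txndc11 and Ppib) they lay below them, against 8.94%. The median log2 fold change of the 41 genes was 0.051, with 27 above 0 and 14 below.

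Of the integrated stress response genes 26 were tested, and edgeR called 0. Only Slc6a9, a glycine transporter gene, had an unadjusted p under 0.05, with 2.0, 1.83 and 2.18 CPM in Rest_het and 1.24, 1.21 and 0.978 CPM in WT libraries, a fold of 1.74 (1.15 to 2.65; edgeR adjusted p 0.36). That is 3.85% higher and 0 lower, near the background. Psph, the last enzyme of serine synthesis, had a fold of 1.21 (0.988 to 1.49), the amino acid transporter gene Slc1a4 of 1.20 (0.968 to 1.5), and Ppp1r15a, which restores eIF2, of 1.19 (0.960 to 1.48). The median over the 26 genes was 0.095. WT replicate 1 was the lowest library for 11 of them, a share that was not counted over all tested genes.

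The purity of the tissue was read from marker genes. Summed over 10 genes, cortical markers gave 1764 to 1908 CPM in Rest_het and 1916 to 2190 CPM in WT libraries. These sums nearly touched but did not overlap. Of the 10 log2 fold changes 8 were below 0, and at an unadjusted edgeR p under 0.05 1 marker was higher and 1 lower. Of 8 choroid plexus markers 6 were tested and 2 (33.3%) were higher at an unadjusted edgeR p under 0.05, against 6.98% of all tested genes. Their sum was 182, 8.81 and 380 CPM in Rest_het and 59.8, 3.43 and 5.25 CPM in WT libraries. Of 8 diencephalon markers 6 were tested and 4 (66.7%) were higher by the same rule. All 6 log2 fold changes were above 0, with a median of 0.91. In 5 of the 6 all Rest_het values lay above all WT values, against 10.4% of all tested genes. The sums overlapped, with 143 to 257 CPM in Rest_het and 140 to 235 CPM in WT libraries. Sums overlapped for the markers of endothelium, meninges, microglia, erythroid cells, ventral telencephalon and mural cells, and for early response and heat shock genes. Of 7 heat shock genes 4 were tested. By the same rule 1 (25%) was higher and 1 (25%) lower, against 6.98% and 4.72% of all tested genes. All Rest_het values lay above all WT values in 2 and below them in 1, against 10.4% and 8.94%. Of 8 early response genes 6 were tested and 0 passed, but all 6 log2 fold changes were above 0 (median 0.22). The sum of the 6 mural cell markers was 1481, 1192 and 252 CPM in Rest_het and 273, 184 and 223 CPM in WT libraries, so 2 of the 3 Rest_het libraries lay far above every WT library. Of these markers 1 was higher at an unadjusted edgeR p under 0.05, and the groups overlapped in all 6. Their log2 fold changes had a median of 0.16 and a maximum of 2.34, with 2 below 0. The sum thus does not describe the mural markers as a set. No list had a marker at 0 reads in every library. Their part in the stress-response values was not tested, and in whole tissue fewer cells of a type and less RNA per cell cannot be told apart.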

How the data were processed

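The members and lists were chosen with earlier results of these data known. Read pairs were mapped and counted per gene by the authors. The submitters' processing notes name STAR 2.5.2a and the build GRCm38.p4. The deposited files hold these whole-number counts, and the unstranded column was used, since 49.9 to 50.1% of reads fell on the forward strand. PCR copies were counted as reads. Rows naming no gene (32.5 to 38.4% of read pairs) and 99 spike-in and 15 transgene rows were left out. A deposited table of normalized signal, the counts divided by 1 size factor per library with DESeq2 per the submitters' processing notes, served 1 alternative. Symbols and exon lengths came from GENCODE M21 (48349 of 48709 IDs matched).

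Counts were tested with edgeR 4.0.16 in R 4.3.3 (filterByExpr, count minimum 10, total 15; TMM; quasi-likelihood test; genotype as the single term, all 6 libraries), called at an adjusted p under 0.05 over all genes. Intervals of a fold are 95% from the quasi-likelihood test. Every member is named. By rule, per-library values are given for members with an unadjusted p under 0.05, sensors, factors and the most abundant members of both classes, and those of other members were added after their values were seen. Of the other pathway genes, up to 4 per list with the smallest p and some others are named. The pipeline was tested on simulated data. Alternatives were other scalings and filters, DESeq2 1.42.0, limma 3.58.1 (voom, or log2 of the deposited values plus 1), the replicate number or Xist as a term, a threshold of 0.10, and each library left out. Replicates differed by more than sampling noise. Plots used matplotlib 3.10.9. Protein sequences were not used here.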

Additional observations from a re-analysis of the deposited data

Results flagged for a closer look

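Reads outside the gene counts separated the genotypes. Cre-ERT2 had 10, 16 and 17 reads in the Rest_het libraries, 43 in all, and 0 in each WT library. LacZ had 0 reads in each Rest_het library and 27, 51 and 43 reads in the WT libraries, 121 in all. A count of 0 allows up to 3 reads per library, or 0.145 to 0.168 CPM without TMM scaling, which covers counting error only. The labels name neither sequence. Whether they bear on the stress-response genes was not tested.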

How the results depend on the processing

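With single libraries left out, edgeR called 12 to 35 genes over all, against 19, and 0 of the stress-response genes. The number of these higher at an unadjusted p under 0.05 was 4 to 8, against 9, and of ATF4 targets 1 to 4. The share of all tested genes higher by this rule was 4.11 to 7.94%, against 6.98%. The median log2 fold change of the folding genes was 0.15 to 0.24, and the folding minus ATF4-target median -0.21 to -0.018. Among the other pathway genes, 0 to 1 ER genes were lower, 1 to 2 integrated stress response genes higher and 0 to 1 lower. Over all genes, 127 were called by DESeq2, 107 without a filter and 6 with the replicate block, and DESeq2 called 2 stress-response genes. With Xist as a covariate 2 ATF4 targets and 3 of the other ER genes were higher, against 6.12% of all tested genes. Upper-quartile factors, DESeq2, no filter and the replicate block each gave 1 lower ER gene, and no filter gave 2 higher integrated stress response genes. The median of all tested genes was -0.0016 with DESeq2 size factors, -0.013 with upper-quartile factors and -0.0014 with DESeq2. Of 480 recomputed member values 459 kept direction and side of the threshold, 2 passed it (Herpud1 and Hspa5 with DESeq2) and 19 turned in sign, in 9 genes. Dnajb9 was -0.0025, -0.014 and -0.0029 with DESeq2 size factors, upper-quartile factors and DESeq2. The others turned with a library left out, with log2 ranges of -0.035 to 0.048 for Dnajb9, -0.015 to 0.10 for Hsp90b1, -0.055 to 0.035 for Canx, -0.0062 to 0.13 for Pdia6, -0.29 to 0.031 for Ern1, -0.012 to 0.55 for Eif2ak3, -0.12 to 0.073 for Psat1, -0.13 to 0.051 for Mthfd2 and -0.0080 to 0.855 for Slc7a11. The cause was not tested. Same-numbered libraries did not deviate together (correlations of 0.011, 0.037 and -0.14). With 3 libraries per group and no litter given, this cannot decide whether the numbers pair the mice. With the replicate block 8 of the 9 genes kept an unadjusted edgeR p under 0.05.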

Other observations

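In 3 other genes of the pathway single libraries stood far from the rest of their group, and these genes were singled out after their values were seen. Edem1, a lectin of ER-associated degradation, had 46.4, 44.3 and 21.0 CPM in Rest_het and 21.6, 47.2 and 49.6 CPM in WT libraries, so that Rest_het replicate 3 and WT replicate 1 shared the lower level. Atf6b, the paralog of Atf6, had 68.3, 77.1 and 57.8 CPM in Rest_het and 15.48, 49.1 and 53.9 CPM in WT libraries, with WT replicate 1 low as for Slc7a11. Ssr1, a subunit of the complex at the ER translocon, had 1431, 1461 and 1520 CPM in Rest_het and 1688, 1560 and 2647 CPM in WT libraries, where WT replicate 3 stood far above the rest.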
